A study of Homo sapiens with 18 samples.

Results

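MYC sites on chromosome 8 beyond the MYC gene itself were described across 9 MYC ChIP-seq peak lists. They were chosen by position alone: every listed peak on chromosome 8 (hg19) that starts above 130000000 was taken, and any overlap of 1 bp or more joined peaks of different lists into 1 region. This gave 397 merged regions of 43222 on chromosomes 1 to 22 and X, or 0.919%. Of these, 266 start above 139000000 and are called the 8q24.3 end here. The other 131 form the inner part, and 1558 regions that start below 127500000 serve as the proximal comparison on the same chromosome. Every member satisfies the position rule. The band names were taken over as given, since no band map of this build was used here.

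The libraries came from MCF10A, an immortalised, non-tumour breast epithelial cell line, carrying pBABE-hygro-MYC and pMN-IRES-GFP-PI3KH1047R, so ectopic MYC and a mutant PI3K were present in every group. A doxycycline-inducible hairpin, pLKO-tetON-puro-shG9a 1 (shG9a_1 below), shG9a 4 (shG9a_4) or shSCR, the scramble control, was switched on for 72 h with 2 µg/mL doxycycline, which the control cells received too. Each hairpin had 3 replicates, which the series design calls biological, and the MYC antibody N262 was used throughout. The 9 DNA inputs have no list used here, and these files hold no measure of G9a itself. MYC is a transcription factor that pairs with MAX and binds mostly at active promoters and enhancers, often at the E-box CACGTG. G9a is a histone methyltransferase that acts on lysine 9 of histone H3 and is tied to gene silencing. The long arm end of chromosome 8 is known for its dense genes, and it lies beyond the MYC locus, a frequent site of DNA gain in cancer.

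In the RefSeq table (GRCh38.p14), used here for gene order only, 127 of 715 protein-coding genes of chromosome 8 lie between PVT1, the neighbour of MYC, and the chromosome end. They include NDRG1, a stress-response gene, PTK2, a focal adhesion kinase, HSF1, the heat shock transcription factor, BOP1, a ribosome assembly factor, and RPL8, a ribosomal protein. Because the peak lists are on hg19, no region was assigned to a gene, exon or promoter, and no sequence is shown.

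List length and enrichment differed between libraries. Over chromosomes 1 to 22 and X the shG9a_1 lists had 113, 11462 and 13068 entries, the shG9a_4 lists 11168, 17454 and 12922, and the shSCR lists 29827, 34738 and 20118. Replicate 1 of shG9a_1 stands apart, with 113 peaks and 3 of them distal, so values are given with and without it where it matters. Read depth is not listed. The lowest local background that many peaks of a library share, which grows with depth, was 0.361 to 1.03 reads in shG9a libraries and 0.408 to 0.488 in shSCR libraries.

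Distal MYC regions were packed towards the chromosome end. The end held 266 regions over 7.28 Mb and the inner part 131 over 9 Mb. The window from 15 to 16 Mb past the bound held 80 regions, 48 of them called in all 3 shSCR libraries, and the window before it held 63, 34 of them so called. The inner part had 1 dense stretch, from 4 to 5 Mb past the bound, with 47 regions. The 4 windows from 6 to 10 Mb past the bound held 6, 9, 4 and 1 regions, and 1 of these was called in all 3 shSCR libraries. The median distance between the starts of neighbouring regions was 4.93 kb in the end, 26.9 kb in the inner part and 21.6 kb in proximal chromosome 8.

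**Figure D1:**
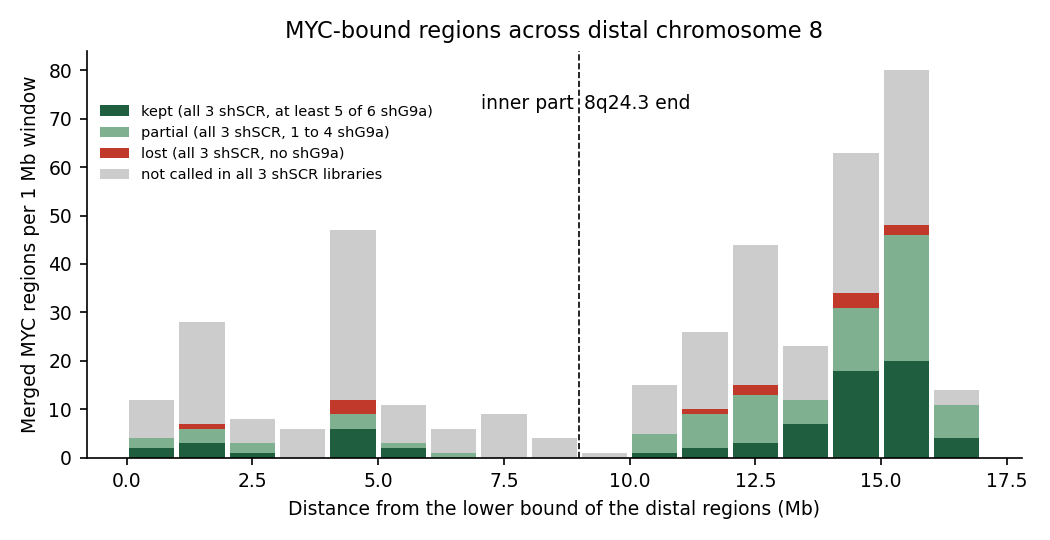
Merged MYC regions in 1 Mb windows (bars), by distance in Mb from the lower bound of the distal regions. Colours give how the shG9a libraries called the regions of all 3 shSCR libraries, and the dashed line separates the inner part from the 8q24.3 end, whose fullest window holds 80 regions.

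Peak density was higher in distal than in proximal chromosome 8 in each of the 9 libraries. In distal chromosome 8 the shG9a_1 libraries had 0.184, 8.17 and 9.40 peaks per Mb, the shG9a_4 libraries 8.23, 11.2 and 9.46, and the shSCR libraries 17.8, 20.3 and 13.4. In proximal chromosome 8 the values were 0.0314, 2.81 and 3.35 in shG9a_1, 3.02, 4.42 and 3.23 in shG9a_4, and 8.53, 9.76 and 5.25 in shSCR. The mean excess was 6.42 ± 2.97 peaks per Mb (SD, n = 9; two-sided exact sign-flip permutation p = 0.00391, the smallest that 9 libraries allow, 0.0127 adjusted over the 13 tests run). All libraries read the same chromosome of the same line, so such a p covers the spread between libraries and not other stretches of the genome.

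The excess came with the 8q24.3 end. Peaks per Mb in the end were 0.412, 15.3 and 17.3 in shG9a_1, 15.0, 20.5 and 17.6 in shG9a_4, and 28.3, 32.2 and 24.9 in shSCR. In the inner part they were 0, 2.44 and 3.00 in shG9a_1, 2.78, 3.67 and 2.89 in shG9a_4, and 9.33, 10.8 and 4.11 in shSCR. The end was denser in 9 of 9 libraries, by 14.7 ± 6.31 peaks per Mb on average (SD, n = 9; exact sign-flip permutation p = 0.00391, adjusted 0.0127). Inner and proximal densities lay close to each other in each library, as the plot of density by library shows.

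**Figure D2:**
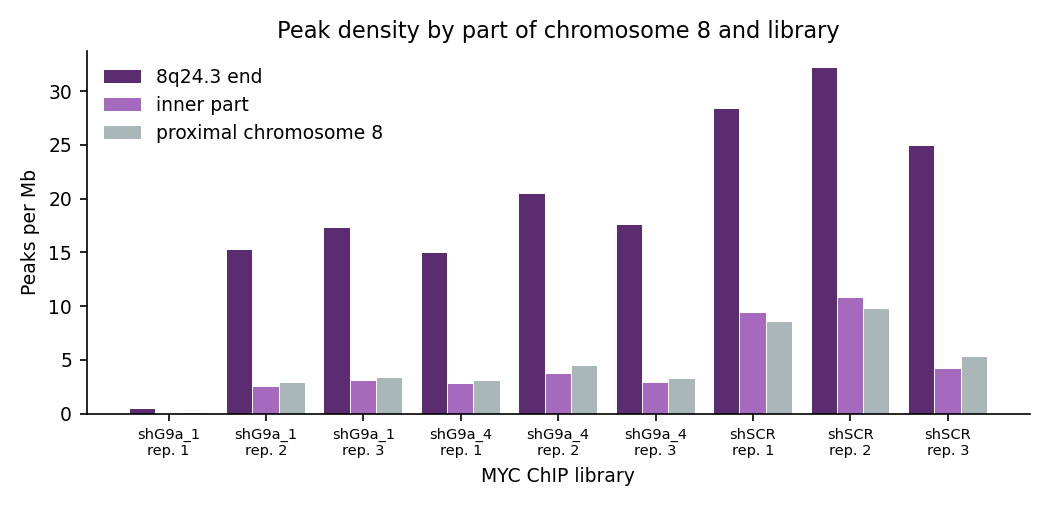
Peaks per Mb (vertical axis) in the 8q24.3 end, the inner part and proximal chromosome 8, for each MYC ChIP library (horizontal axis; no error bars, 1 value per library). The end stands above both other parts in all 9 libraries, and replicate 1 of shG9a_1 has no inner peak.

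Fewer distal peaks were listed with the G9a hairpins than with the scramble hairpin. The lists held 3, 133 and 153 distal peaks in shG9a_1 and 134, 182 and 154 in shG9a_4, against 290, 331 and 218 in shSCR. The groups did not overlap. The means were 126.5 ± 63.1 (SD, n = 6) in shG9a and 279.7 ± 57.2 (SD, n = 3) in shSCR (exact permutation test, two-sided, p = 0.0238, 0.0508 adjusted over 13 tests, and the design allows no smaller p). Without replicate 1 of shG9a_1 the shG9a mean was 151.2 ± 19.9 (SD, n = 5, with an exact permutation p of 0.0357, again the lowest that can be had). Each hairpin alone, at 96.3 peaks on average for shG9a_1 and 156.7 for shG9a_4 against 279.7 for shSCR, had an exact permutation p of 0.1, the smallest that 3 against 3 allow. The difference moved with list length: with the 8 other lists held to their 11168 top peaks by q-value, distal means were 132.8 in shG9a and 131.7 in shSCR (exact permutation p = 0.714).

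The shorter lists had fewer inner peaks above all. Without replicate 1 of shG9a_1, the shG9a mean was 36.6% of the shSCR mean in the inner part, 60.2% in the end, 42.9% in proximal chromosome 8 and 46.9% on the other chromosomes. Distal peaks made up 37.5, 26.3 and 25.7% of the chromosome 8 peaks in shG9a_1 and 25.1, 23.9 and 26.7% in shG9a_4, against 20.6, 20.3 and 23.9% in shSCR. The mean share was 27.5 ± 4.98% (SD, n = 6) in shG9a and 21.6 ± 1.97% (SD, n = 3) in shSCR (exact permutation p = 0.0238, adjusted 0.0508). The value of 37.5% rests on 8 peaks, 3 of them distal. Without that library the shG9a mean was 25.5 ± 1.10% (SD, n = 5; exact permutation p = 0.0357), and at equal list length the shares differed by 1.47 percentage points (exact permutation p = 0.107).

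The authors' fold enrichment, a ratio at the peak summit, was nearly the same in distal and proximal peaks of a list. Median distal folds were 7.63, 6.31 and 6.75 in shG9a_1, 6.12, 6.95 and 6.09 in shG9a_4, and 7.03, 6.87 and 7.12 in shSCR. Median proximal folds were 6.63, 6.33 and 6.23 in shG9a_1, 6.13, 6.82 and 6.19 in shG9a_4, and 6.33, 6.63 and 6.84 in shSCR. The ratio of medians was 1.05 on average and above 1 in 6 of 9 libraries (log2 0.064 ± 0.078, SD, n = 9; exact sign-flip permutation p = 0.0352, adjusted 0.0508). It was no longer past 0.05 without shG9a_1 replicate 1 (log2 0.047), which has 3 distal and 4 proximal peaks, nor without shG9a_1 replicate 3, shG9a_4 replicate 2 or any 1 shSCR library (exact permutation p = 0.0625 to 0.0703). It was larger with a fold of at least 5 (log2 0.092, exact permutation p = 0.00391) and as a difference of mean log2 folds (0.098, exact permutation p = 0.00391). Against the peaks of all other chromosomes the log2 ratio was 0.025 (exact permutation p = 0.211).

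Fold hides a difference in both of its terms. For a Poisson caller, fold and p-value fix the read pileup at the summit and the local background it was set against. Median background at distal peaks was 0.835, 0.809 and 1.07 reads in shG9a_1, 1.67, 1.02 and 2.23 in shG9a_4, and 1.10, 1.25 and 0.879 in shSCR. At proximal peaks it was 0.800, 0.625 and 0.842 reads in shG9a_1, 1.37, 0.797 and 1.55 in shG9a_4, and 0.917, 0.997 and 0.685 in shSCR. Distal background was thus 1.25-fold the proximal one on average and higher in 9 of 9 libraries (log2 0.32 ± 0.12, SD, n = 9; exact sign-flip permutation p = 0.00391, adjusted 0.0127). Median pileup was 1.19-fold higher, again in 9 of 9 libraries (log2 0.25 ± 0.067, SD, n = 9; exact sign-flip permutation p = 0.00391, adjusted 0.0127). Distal peaks therefore had more reads over a higher background, in all 3 groups. A peak over a higher background needs more reads to be listed at all. The pileup difference is thus not a result apart from the background one.

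The raised background was not bounded by the distal regions. In 5 Mb windows, set against the median of the other chromosomes in the same library, it was −0.26 to 0.10 (log2, mean of 8 libraries without shG9a_1 replicate 1) in the 20 windows up to 30 Mb before the bound. In the next 6 windows, which end at the bound, it was 0.54 to 0.80, and in the 4 distal windows 0.43 to 0.51, above 0 in 8 of 8 libraries in each. Some windows rest on few peaks, the thinnest distal one on 2 peaks in 1 library and 64 in all. The step therefore lies near 100000000, well before the MYC locus. Against the stretch from there to 127500000, chosen after the windows were seen, distal background was 0.92-fold, with means over the 9 libraries of 1.21 reads in distal and 1.298 reads in that stretch (log2 −0.12). Median distal pileup was 1.01-fold that of the same stretch (log2 0.0098). The background itself set where that stretch begins, so both values are a description with no test.

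**Figure D3:**
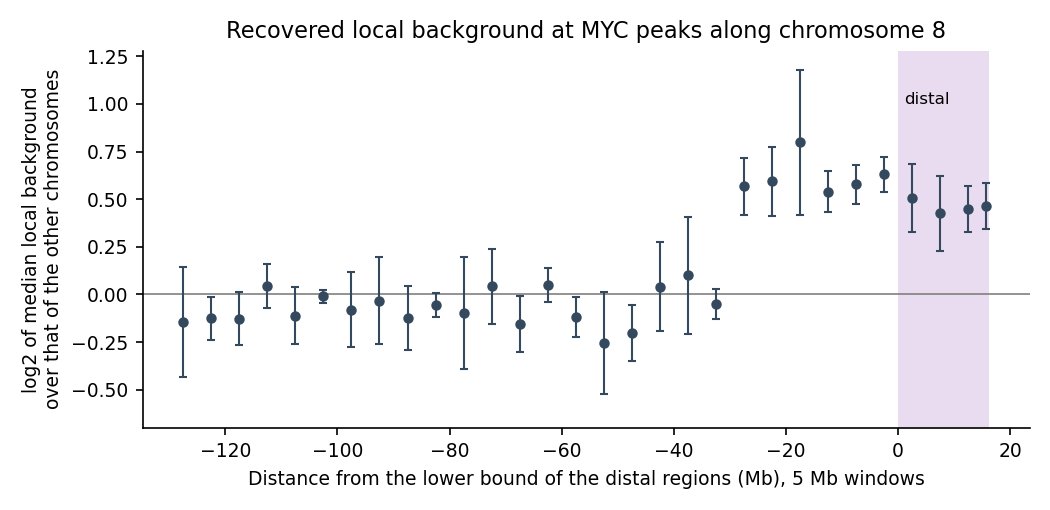
Mean and SD over 8 libraries (without shG9a_1 replicate 1) of the log2 ratio of the median local background in 5 Mb windows of chromosome 8 to that of the other chromosomes, by distance in Mb from the lower bound of the distal regions (shaded). Windows up to 30 Mb before the bound lie at −0.26 to 0.10, and later ones at 0.43 to 0.80.

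No difference between end and inner peaks passed the test in fold or background. The end-to-inner ratio of median fold averaged 0.994 (log2 −0.0085 ± 0.13, SD, n = 8; exact sign-flip permutation p = 0.867), and was 0.918 to 0.999 in the 5 shG9a libraries with inner peaks, against 1.15, 1.14 and 0.968 in shSCR. The ratio of median background averaged 0.964 (exact sign-flip permutation p = 0.398). Regions called in all 8 libraries other than shG9a_1 replicate 1, a set added after the data were seen, were 55 in the end and 14 in the inner part. Their median folds averaged 10.6 in the end and 12.2 in the inner part (log2 −0.19, exact sign-flip permutation p = 0.00781, the smallest possible). All 8 libraries read these same regions, so this p does not cover which regions lie in either part. The end peaks of shSCR were the wider ones, with a median of 290, 330 and 276 bp, against 208.5, 247 and 243 bp for inner peaks of shSCR. In shG9a_1 replicate 2 the order was reversed, at 245 bp in the end and 267 bp in the inner part. In shG9a_1 replicate 3 and shG9a_4 replicates 1 to 3, end medians were 259, 251, 275 and 233.5 bp. Inner medians in these libraries were 217, 227, 224 and 205.5 bp.

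Of the 397 distal regions, the lists of shG9a_1 called 3, 121 and 139, those of shG9a_4 117, 166 and 136, and those of shSCR 268, 322 and 195. As a share these were 0.756, 30.5 and 35.0% in shG9a_1, 29.5, 41.8 and 34.3% in shG9a_4 and 67.5, 81.1 and 49.1% in shSCR. Of all 43222 regions the same libraries called 0.252, 23.8 and 27.1%, then 23.2, 36.5 and 26.4%, and 63.8, 77.5 and 41.9%, so each called a larger share of the distal ones.

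Among the distal regions, 165 (41.6%) were called in all 3 shSCR libraries, against 30.7% of proximal regions and 32.9% of all. The share was 50.8% in the end (135 of 266) and 22.9% in the inner part (30 of 131). In the inner part 61 regions (46.6%) were called by 1 library alone, against 70 (26.3%) in the end. Over all regions the share was 38.8%, and in proximal chromosome 8 it was 39.1%. Strength is the mean percentile of a region's best shSCR peak by q-value within its list. The median strength of the 165 regions was 70.5, against 65.8 for such proximal regions and 66.8 for those on the other chromosomes. Of the 165, 40 (24.2%) lay above the 90th percentile, against 12.1% of the proximal regions and 16.1% on the other chromosomes.

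Each shG9a library called a larger share of these regions in distal than in proximal chromosome 8. Of the 165 distal regions, 3, 106 and 112 were called in shG9a_1 and 103, 132 and 120 in shG9a_4, or 1.82, 64.2, 67.9, 62.4, 80.0 and 72.7%. Over all shSCR-reproducible regions of the genome, the same 6 libraries called 0.767, 57.7, 64.5, 58.3, 77.3 and 66.3%. In proximal chromosome 8 they called 0.837, 53.8, 61.5, 54.4, 72.0 and 63.6% of 478 regions. The mean difference between distal and proximal chromosome 8 was 7.17 ± 3.32 percentage points, positive in 6 of 6 libraries (SD; exact sign-flip permutation p = 0.03125, the smallest possible, 0.0508 adjusted over 13 tests). Without shG9a_1 replicate 1 it was 8.41 points (exact sign-flip permutation p = 0.0625, the smallest possible). At like shSCR strength, over all 6 libraries, the difference was 2.62 points (exact permutation p = 0.03125). Against all shSCR-reproducible regions of like strength in the genome, distal regions averaged 0.737 points and proximal ones −1.88 points. The distal average joins 2 parts that differed, with 3.03 points in the end and −9.57 points in the inner part. By library, the distal values were 0.795, 2.27 and −0.575 points in shG9a_1 and −0.143, −0.314 and 2.39 points in shG9a_4. The stretch from 100000000 to 127500000 was called nearly as often, with means of 58.2% of distal regions and 57.4% of the regions there (difference 0.732 points, exact permutation p = 0.594).

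Each shG9a library called a larger share of the end regions than of the inner ones, although the share of regions kept, called in at least 5 of 6 shG9a libraries, ran the other way, at 40.7% in the end and 46.7% in the inner part. The 6 libraries called 2.22, 65.9, 70.4, 63.7, 81.5 and 75.6% of the 135 end regions, in the order shG9a_1 replicates 1 to 3 and shG9a_4 replicates 1 to 3. Of the 30 inner regions they called 0, 56.7, 56.7, 56.7, 73.3 and 60.0%. The difference averaged 9.32 ± 4.80 points and was positive in 6 of 6 libraries (SD; exact sign-flip permutation p = 0.03125, the smallest possible, adjusted 0.0508). Without shG9a_1 replicate 1 it averaged 10.7 points (exact sign-flip permutation p = 0.0625, the smallest possible). The difference rests on 30 inner regions, and without shSCR replicate 3, which changes the set of regions, it was 21.4 points. At like shSCR strength, over all 6 libraries, the end minus inner difference was 12.6 points (exact sign-flip permutation p = 0.03125). Set against regions of like strength in the genome, end regions averaged 3.03 points and inner ones −9.57 points. Median strength was 69.6 in the end and 74.1 in the inner part.

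**Figure D4:**
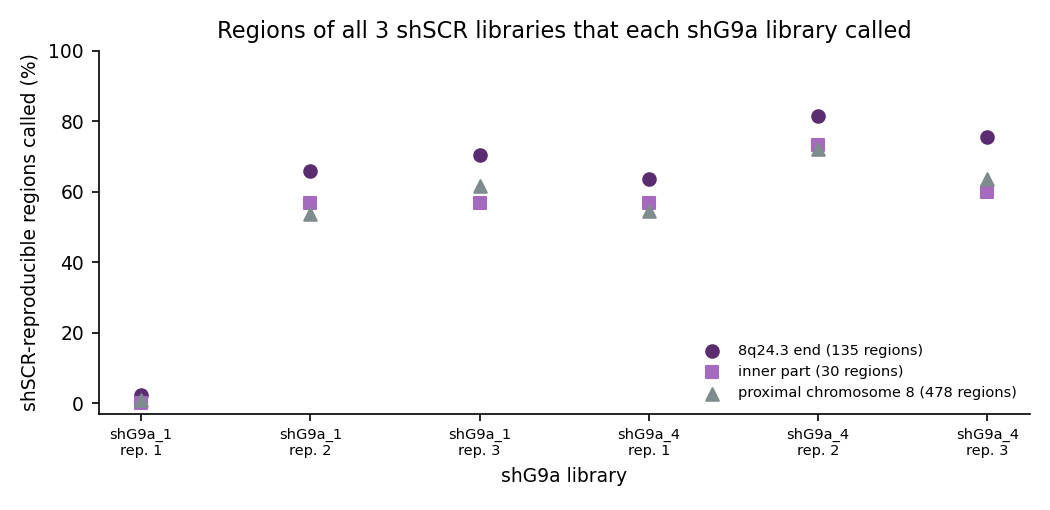
Percent of the regions called in all 3 shSCR libraries that each shG9a library (horizontal axis) called, in the 8q24.3 end, the inner part and proximal chromosome 8. Each point is 1 library, and the end is the highest of the 3 parts in all 6.

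The states of the 165 regions were near those of the whole genome. Called in no shG9a library, and so lost, were 12 (7.27%, Wilson 95% interval 4.21 to 12.3%), against 9.49% of all 14209 such regions in the genome. Kept, that is called in at least 5 of 6 shG9a libraries, were 69 (41.8%, interval 34.6 to 49.4%), against 36.9% in the genome. Both genome shares lie within the intervals, which cover counting error only. The end had 8 lost and 55 kept of 135, and the inner part 4 lost and 14 kept of 30. Leaving out 1 library moved the lost regions to 21 of 166 (shG9a_4 replicate 2), 20 of 183 (shSCR replicate 1) or 44 of 226 (shSCR replicate 3). Without an shSCR library, calls in the remaining shSCR libraries were enough to enter the set, so the set grew. At equal list length 1 of 81 was lost. No genome share is set beside these counts, so they are not read as particular to distal chromosome 8.

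Kept regions were wide and strong, and lost ones narrow and weak. Median merged width was 846 bp in kept regions, 465 bp in partial ones and 347.5 bp in lost ones. Median fold in shSCR was 14.5 in kept, 7.91 in partial and 6.69 in lost regions. On the other chromosomes the order was the same, with widths of 743, 467 and 334 bp and folds of 13.6, 7.74 and 6.21. The states use calls of these same lists, and weak peaks leave a shorter list first. Merged width can only grow with each list that joins a region. The order is therefore a description.

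The strongest distal region lay in the 8q24.3 end at chromosome 8, 145733531 to 145735369, and was called in all 9 libraries. Its folds were 7.92, 36.2 and 47.5 in shG9a_1 and 26.7, 54.7 and 40.2 in shG9a_4, against 46.3, 58.6 and 53.3 in shSCR. Pileups there were 14, 71 and 81 reads in shG9a_1, 90, 119 and 129 in shG9a_4, and 119, 154 and 114 in shSCR. The groups overlapped. It stood at percentile 99.96 of shSCR strength and, at 1839 bp, was also the widest distal region.

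The next was in the inner part, at 134387742 to 134388733. Folds were 25.5 and 19.4 in shG9a_1 replicates 2 and 3 and 15.2, 33.2 and 17.7 in shG9a_4, against 64.6, 54.9 and 37.8 in shSCR, so every shG9a value lay below every shSCR value. Its background was 1.08 and 3.02 reads in the same shG9a_1 libraries, 3.33, 1.20 and 3.74 in shG9a_4 and 0.780, 1.33 and 0.719 in shSCR. The region at 145514582 to 145515967 had folds of 32.2 and 37.1 in shG9a_1 and 26.8, 33.2 and 31.3 in shG9a_4, against 40.4, 52.1 and 44.5 in shSCR, again without overlap. Pileup relative to each library's median region did not show this: the log2 difference of shG9a from shSCR was −0.017 (SE 0.19, limma adjusted p = 0.991) at 134387742 and 0.088 (SE 0.19, limma adjusted p = 0.945) at 145514582. The region at 146017226 to 146018019 was called in all 9 libraries, with folds of 7.54, 18.0 and 38.0 in shG9a_1 and 19.9, 40.1 and 21.3 in shG9a_4, against 27.2, 29.2 and 30.9 in shSCR. There the shG9a values lay on both sides of the shSCR ones.

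Replicate 1 of shG9a_1 called 3 distal regions, and all 3 were among the 5 strongest, namely those starting at 145733531, 146017226 and 145023688. At the last of these, 145023688 to 145024316, its fold was 7.63. The other libraries had there 19.3 and 20.8 in shG9a_1 and 18.6, 26.7 and 20.4 in shG9a_4, against 30.3, 35.6 and 37.5 in shSCR. Ranks 6 to 10 lay at 131455312 to 131456350, 144655526 to 144656535, 134582047 to 134583376, 134583748 to 134585063 and 144679033 to 144680769. Mean shSCR folds of these 5 were 21.4 to 28.7, with the lowest at rank 10. Ranks 8 and 9 are neighbours in the inner part. The fifth inner region by strength, at 130401099 to 130401595, had a mean fold of 16.3 ± 4.86 (SD, n = 5) in shG9a and 23.3 ± 8.61 (SD, n = 3) in shSCR. Its pileup relative to each library's median region ran the other way, with a log2 difference of 0.45 (SE 0.19, limma adjusted p = 0.466).

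**Figure D5:**
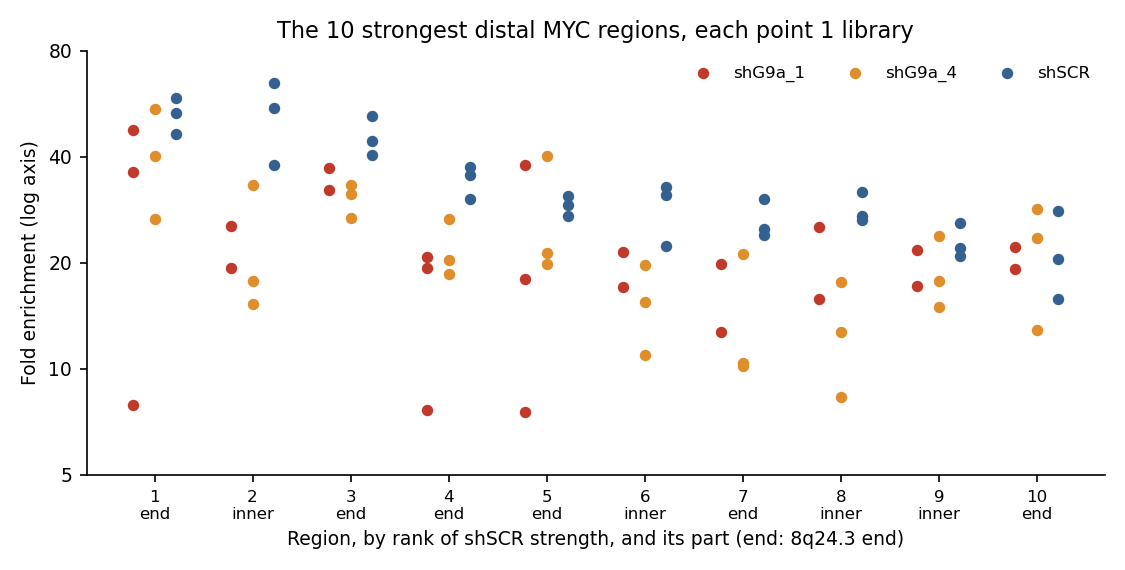
Fold enrichment (log axis), the authors' value within each list, at the 10 strongest distal regions by shSCR strength. Each point is 1 library that called the region, for shG9a_1, shG9a_4 and shSCR from left to right, and in 6 of the 10, which were picked for strength in shSCR, every point drawn of both hairpins lies below every shSCR point.

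Fold was lower without overlap in a minority of the distal regions that could be compared. Of the 69 regions called in the 8 libraries other than shG9a_1 replicate 1, 15 (21.7%) had all 5 shG9a folds below all 3 shSCR folds, against 27.7% of the 5245 such regions in the genome. They were 9 of 55 in the end and 6 of 14 in the inner part. Among the 10 strongest regions there were 6, but these were picked by their shSCR strength, which favours higher shSCR folds, so that count is a description only. None had all shG9a folds above all shSCR folds, against 0.0572% in the genome. Fold is set within each list and varies with its depth and background, so these counts set lists beside each other and carry no test.

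A fit over all 5245 regions, limma on log2 pileup centred on each library's median, asked whether any distal region changed relative to the median region. No distal region of 69 passed an adjusted p of 0.05 in limma, against 0.0191% lower and 0.0953% higher among all regions. At an unadjusted p under 0.05, 5 of the 69 distal regions were higher and 2 lower in shG9a, near the 5.41% higher and 3.83% lower among all 5245 regions. The median log2 difference was −0.086 over the 69 regions and −0.0070 over all. The region with the lowest p, at 145059852 to 145060238, had a log2 difference of 0.61 (SE 0.22, limma adjusted p = 0.330). In limma on regions called in at least 2 libraries of each group, 1 distal region of 151 passed, as lower in shG9a, and none as higher. In that fit 0.106% of 13196 regions were lower and 0.0606% higher.

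The lost regions were modest peaks. The strongest, at 134461477 to 134461952, had folds of 7.92, 6.68 and 8.13 in the shSCR libraries, and pileups of 17, 19 and 12 reads. The next lay at 144717975 to 144718779, with a mean shSCR fold of 7.36 ± 1.04 (SD, n = 3), at 131028104 to 131028375, with 7.63 ± 1.43 (SD, n = 3), and at 134838837 to 134839181, with 7.92 ± 2.38 (SD, n = 3). The region at 134375452 to 134375799 had folds of 5.63, 13.4 and 6.61 in shSCR, the highest in replicate 2. The others named by strength were at 145668750, 142036822, 144922901, 144651516 and 145024387 (starts), with mean shSCR folds of 5.93 to 6.74. The last of these begins 70 bp past the kept region at 145023688. Likewise, the lost region at 131028104 begins 285 bp past the kept region at 131027220 to 131027818. Of the 12 lost regions, 7 lay within 20 kb of a kept region, and the median distance over all 12 was 16178 bp. Starts of neighbouring kept regions were themselves a median of 45.4 kb apart, and 30.2 kb in the end. The same distance was not worked out for other regions, so this closeness is a description and not a trait of lost regions.

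No distal region was gained, that is called in no shSCR library and in at least 2 libraries of each hairpin. The genome had 4 such regions (0.00925%), so a count of 0 among 397 is not particular to distal chromosome 8. There were 23 distal regions (5.79%) called in no shSCR library, against 4.55% in the genome, and 20 of them were called in 1 shG9a library alone. The 3 others lay at 134367295 to 134367464, 144640413 to 144640719 and 145869944 to 145870162, and were chosen after their values were seen. Their folds were 3.34 to 4.88, and 2 of the 3 were called with both hairpins.

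The bounds fell in sparse stretches. The first region past the distal bound, at 130248884 to 130249157, was called in 1 shG9a and 1 shSCR library with folds of 4.10 and 6.44, and the last before it, at 129985646 to 129985955, in 1 shSCR library with a fold of 4.51. The last inner region, at 138330893 to 138331052, was called in 2 shSCR libraries and the first end region, at 139911618 to 139911757, in 1 shG9a library.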

How the data were processed

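MYC ChIP-seq was read as 1 peak list for each of 9 libraries, 3 per hairpin. The submitters' processing notes name MACS2 2.1.0, Picard 2.7.1, SAMtools 1.3 and STAR 2.5.2a, with hg19 and GRCh37 as builds, and give them no roles. How the caller was set, and against which control, is not given in the sources used here. In each deposited list the authors' score is 10 times the −log10 q-value with decimals dropped, and the authors' fold is a ratio at the summit. The lists also hold the authors' −log10 p-value, and a −log10 q-value adjusted within the library.

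Chromosomes 1 to 22 and X were kept, which left out 192 of 151062 peaks. Pileup (a whole number) and background were recovered from fold, taken as (pileup + 1)/(background + 1), and the Poisson p-value. All peaks matched within 0.001 on the −log10 scale, and the recovery was tested on simulated data. Where a library had several peaks in a region, the one of highest pileup was used. Density is peaks per Mb up to the last called base, gaps included. Tests were exact permutation tests of libraries and limma 3.58.1 (R 4.3.3, Benjamini-Hochberg), with Python 3.11.15 and scipy 1.17.1. Named regions are the 10 strongest reproducible, the 10 strongest lost and the gained distal regions, the 5 strongest of each part, and any passing limma. Members, lists and tests were chosen with earlier results of these data known. Alternatives were a −log10 q and a fold of at least 5, equal list length, other comparison regions, covered bases, a stricter overlap, other scalings, a replicate block and leaving out libraries.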

Additional observations from a re-analysis of the deposited data

Results flagged for a closer look

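One library was far from the other 5 shG9a libraries in 4 of 11 measures looked at, and it was shG9a_1 replicate 1 each time. It listed 3 distal peaks, against 133 to 182 in the others. Its distal share of chromosome 8 peaks was 37.5%, against 23.9 to 26.7%. Its excess of distal over proximal density was 0.153 peaks per Mb, against 5.21 to 6.77, and its excess of end over inner density was 0.412 peaks per Mb, against 12.2 to 16.8. Chance flags about 1 in 20 such groups. All 4 measures come from the same 113 peaks, and the cause of the short list was not tested.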

How the results depend on the processing

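The settings called at like strength, regions called in 8 libraries, and the 2 parts of proximal chromosome 8 were added after the data were seen. Higher distal density, distal background against all proximal chromosome 8, and end density kept direction and side of the threshold in every setting run for them, except that background was −0.12 (log2) against the last part of proximal chromosome 8. At equal list length the shG9a minus shSCR difference in distal peaks turned to 1.13 peaks for both hairpins, 1.33 for shG9a_1 and 1 for shG9a_4, the share difference was 1.47 points, and 1 region was lost. Equal length takes most peaks from shSCR, the longest lists. Deviations of libraries with the same replicate number correlated at −0.0209 to 0.155 (7 pairs), and those of other numbers at −0.145 to 0.0819, so the numbers were not read as pairs. The replicate block left the differences at −153 peaks and 5.96 points, with exact permutation p = 0.0741, the smallest possible, and changed no limma call among distal regions. With a fold of at least 5 the share difference was 4.65 points. The log2 fold ratio of distal to proximal peaks was 0.018 with a −log10 q of at least 5, 0.044 at equal list length, 0.025 against other chromosomes, and 0.065 and 0.032 against the first and last part of proximal chromosome 8, these 5 not past 0.05. It was 0.092 with a fold of at least 5, 0.098 with mean log2 fold and 0.078 at regions called in 8 libraries, these 3 past 0.05 (exact permutation p = 0.00391, 0.00391 and 0.0469). The log2 pileup ratio was 0.13 with the q limit and 0.0098 against the last part. The retention difference from proximal regions was 3.35 points with the q limit, 3.57 with the fold limit, 5.00 at equal list length, 0.732 against the last part and 4.62 where peaks had to cover at least 50% of a region. End minus inner retention was 3.62 at equal list length and 5.90 with that rule, under which 21 of 115 regions were lost and 20 kept. The log2 end-to-inner fold ratio was −0.19 at regions called in 8 libraries, and limma called 1 region among those called in at least 2 libraries of each group. Where not stated, the cause was not tested.

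With each library left out in turn, the differences were −184 to −127.5 distal peaks for both hairpins, −214.2 to −136.7 for shG9a_1 and −153.8 to −97.3 for shG9a_4, and 3.96 to 7.09 points in share. Density excess was 5.90 to 7.20 peaks per Mb (end over inner 13.9 to 16.5). Log2 ratios were 0.047 to 0.075 for fold, 0.30 to 0.36 for background, 0.24 to 0.26 for pileup, −0.038 to 0.0080 for end fold and −0.092 to −0.023 for end background. Retention differences were 6.51 to 9.47 points (end minus inner 7.54 to 21.4), with 0 limma calls. Lost regions were 12 to 44 and kept regions 69 to 100, over sets that change with the library left out. Kept here means called in all but 1 of the shG9a libraries used, a looser limit where an shG9a library is left out. The 100 kept, of 165, were found without shG9a_1 replicate 1. Without an shG9a library the exact permutation p of retention was 0.0625, and without an shSCR library that of peak number and share was 0.0714, each the smallest possible. Peaks under the caller's limit are not listed, so an uncalled region was not detectable at that library's depth and enrichment.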

Other observations

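Set beside whole chromosomes, distal chromosome 8 had a high local background and a high pileup, with a fold close to that of the median peak. Relative to the median peak of the same library, and averaged over the 8 libraries without shG9a_1 replicate 1, its log2 background was 0.47, its log2 pileup 0.26 and its log2 fold 0.016. None of the 22 other chromosomes, each taken as a whole, had a higher background or pileup, and 3 had a higher fold. The next in background were chromosome 1, at 0.41, and chromosome 5, at 0.31, while chromosome X was lowest at −0.43. Proximal chromosome 8 as a whole, which spans a low and a raised stretch, stood at 0.11. The stretch around the MYC locus, from 127500000 to 130000000, held 64 regions and had a log2 background of 0.65. These values are medians at called peaks and describe the lists. Their cause was not tested.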
